A study of Mus musculus with 4 samples.

Results

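The cells described here are Ccl5-high effector iNKT1 cells of the mouse thymus, a state of invariant natural killer T (iNKT) cells selected on their own UMI counts. A UMI is a molecular tag, so a UMI count is the number of distinct RNA molecules of a gene read in a cell. A cell was chosen by 2 steps. It first needed an iNKT1 profile. This meant at least 8 UMIs over the iNKT1 genes Nkg7, Klrd1, Il2rb, Klrk1 and Xcl1, and more than 2 times the UMIs of the iNKT2 genes Zbtb16, Il17rb, Izumo1r, Plac8 and Icos. It also meant under 6 UMIs of iNKT17 genes, under 4 of proliferation genes and under 8 of interferon-induced genes. It then needed at least 4 UMIs of Ccl5 and Gzma together. Of 15767 cells that passed quality filters, 1447 met both steps, 117 and 221 of them in BALB/c libraries 1 and 2 and 279 and 830 in B6 libraries 1 and 2. Another 5434 cells met the first step only and are called Ccl5-low iNKT1 cells (146 and 318 in BALB/c, 995 and 3975 in B6). They were the closest cells for comparison. The 32 genes of the rule chose the cells, so their levels are given as descriptions without a test. So is every contrast of Ccl5-high with Ccl5-low cells. Only whether that contrast differed between the strains was tested, as an interaction of strain and state.

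Thymic cells that stained for CD3 and bound PBS57-loaded CD1d, a lipid antigen complex, were sorted from BALB/c and from B6 mice, which are inbred strains, and profiled by droplet-based single-cell RNA sequencing from the 5′ end of the RNA. BALB/c and B6 have 2 libraries each, numbered 1 and 2. No age, sex or treatment is stated in the labels used here. Nor do they tell if libraries 1 and 2 of a strain are different mice. The p-values below therefore measure the spread between these libraries, which may be technical.

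iNKT cells carry an almost invariant T cell receptor (TCR) alpha chain that recognises lipids on CD1d, and they acquire effector functions while still in the thymus. iNKT1 cells, driven by the transcription factor T-bet (Tbx21), make interferon-gamma and share many receptors with natural killer (NK) cells. Ccl5 encodes a chemokine that attracts T cells and NK cells, and Gzma encodes granzyme A, a protease of cytotoxic granules. Both mark effector lymphocytes.

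The sums of the Ccl5-high cells held 785285 and 1495295 UMIs in BALB/c, against 2143531 and 6285887 in B6, so BALB/c 1 was the shallowest. Median UMIs per Ccl5-high cell were 6612 and 6609 in BALB/c, against 7325 and 6920 in B6, and median mitochondrial shares were 1.90% and 1.96% in BALB/c, against 1.70% and 1.60% in B6. Between 4 and 33 barcodes were shared by a pair of libraries. Per the file headers, BALB/c 1, BALB/c 2 and B6 1 were processed with Cell Ranger 6.0.0 and B6 2 with 7.1.0, so software version is partly tied to strain, and the count of strain differences is also given without B6 2.

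The label was first checked against T cell and receptor genes that the rule did not use. Cd3e, a subunit of CD3, had a UMI in 100% and 99.5% of Ccl5-high cells in BALB/c, against 100% and 99.9% in B6. UMIs of the invariant alpha chain segments Trav11, Trav11d or Traj18 were found in 46.2% and 43.0% of Ccl5-high cells in BALB/c, against 42.3% and 15.1% in B6. The corresponding shares of Ccl5-low cells were 39.0%, 47.5%, 51.8% and 18.7% in the same order of libraries, so B6 2 was low in both states. In double-positive thymocyte-like cells of the same libraries, taken as cells with at least 3 UMIs of Rag1, Dntt and Arpp21 together, the share was at most 2.39% in any library. Trbv13, the main beta chain partner of the invariant chain, was the most abundant beta segment, among cells with at least 2 UMIs of such segments, in 70.4% and 68.3% of Ccl5-high cells in BALB/c libraries, with 70.3% and 73.7% in B6, against 17.9% to 29.8% of double-positive thymocyte-like cells. Tbx21 stood at 167 and 134 CPM (counts of a gene per 1000000 UMIs of the summed cells) in BALB/c and 146 and 194 CPM in B6. A Tbx21 UMI was found in 57.3% and 54.8% of BALB/c and 60.6% and 69.4% of B6 Ccl5-high cells. The share was 58.3% to 66.8% of Ccl5-low cells and at most 7.46% of the shallower double-positive thymocyte-like cells. Cd3e had a UMI in 79.9% to 96.8% of the latter. Cd3e and the receptor segments go with the sort, the alpha segments less so in B6 2. They cannot tell iNKT1 from other iNKT cells, because the sort already selected CD3 and CD1d binding. Tbx21 was not set beside other iNKT cells.

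Markers of other cell types ranged from absent to well detected, and those of NK cells had the highest sum. Trdc, Ms4a1, C1qa and Il17a, which mark gamma-delta T cells, B cells, macrophages and iNKT17 cells, had 0 UMIs in the Ccl5-high cells of all 4 libraries, while other genes of the same lists were detected. Summed gamma-delta T cell markers were 465 and 413 CPM in BALB/c and 577 and 538 CPM in B6 Ccl5-high cells, against 549 to 611 CPM in Ccl5-low cells. Summed B cell markers were 116 and 100.3 CPM in BALB/c and 182 and 186 CPM in B6. Summed myeloid markers were 188.5 and 188.6 CPM in BALB/c and 138 and 129 CPM in B6. Both sums separated the strains, but each list had only 1 gene with enough counts for the strain comparison below. These were Ighm of the B cell list and Cst3 of the myeloid list. Summed iNKT17 markers were 16.3 to 26.7 CPM. Cd79a had 1 UMI, Lyz2 had 2 and Itgam had 1 over all 1447 cells. The summed level of 13 NK cell markers was 1490 and 1505 CPM in BALB/c and 1569 and 1573 CPM in B6 Ccl5-high cells. Fcer1g is among these markers and is also a marker of the Ccl5-high state. Its own level, given below, was a large part of the sum. In Ccl5-low cells the same sum was 654 and 846 CPM in BALB/c and 808 and 877 CPM in B6. In the rest of the quality-filtered cells it was 35.3 and 64.0 CPM in BALB/c and 236 and 230 CPM in B6. Summed CD8 T cell markers ran the other way, at 236 and 237 CPM in BALB/c and 152 and 205 CPM in B6 Ccl5-high cells, against 482 and 331 CPM in BALB/c and 281 and 310 CPM in B6 Ccl5-low cells. Summed double-positive thymocyte markers were 52.7 to 101 CPM in Ccl5-high cells and 137 to 251 CPM in Ccl5-low cells. The part of such cells in the results below was not tested, apart from fits without cells that had a Cd8a or Cd8b1 UMI.

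The share of Ccl5-high cells in the sort overlapped between the strains, while their share of iNKT1 cells was larger in both BALB/c libraries. They were 6.17% (95% exact binomial interval 5.13 to 7.35, which covers counting error only) and 11.4% (9.98 to 12.8) of quality-filtered cells in BALB/c, and 11.7% (10.5 to 13.1) and 8.69% (8.14 to 9.28) in B6. The mean was 8.76% ± 3.66 for BALB/c and 10.2% ± 2.15 for B6 (SD, n = 2 each), and the difference of -1.45 percentage points was within the spread between libraries (exact two-sided permutation p = 0.667). Its sign changed to 1.14 points without BALB/c 1 and to 0.0661 points without B6 1. Among cells with the iNKT1 profile, Ccl5-high cells made up 44.5% (38.4 to 50.7) and 41.002% (36.8 to 45.3) in BALB/c and 21.9% (19.7 to 24.3) and 17.3% (16.2 to 18.4) in B6. The strains did not overlap, and the mean was 42.7% ± 2.46 for BALB/c and 19.6% ± 3.27 for B6 (SD, n = 2 each). The difference was 23.2 points (exact two-sided permutation p = 0.333, the smallest that 2 against 2 libraries allow). It was 24.0 points after each cell was thinned to 5000 UMIs. The iNKT1 profile itself was found in 13.9% and 27.7% of cells in BALB/c, against 53.6% and 50.3% in B6, so the denominators differ between the strains in the other direction.

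**Figure D1:**
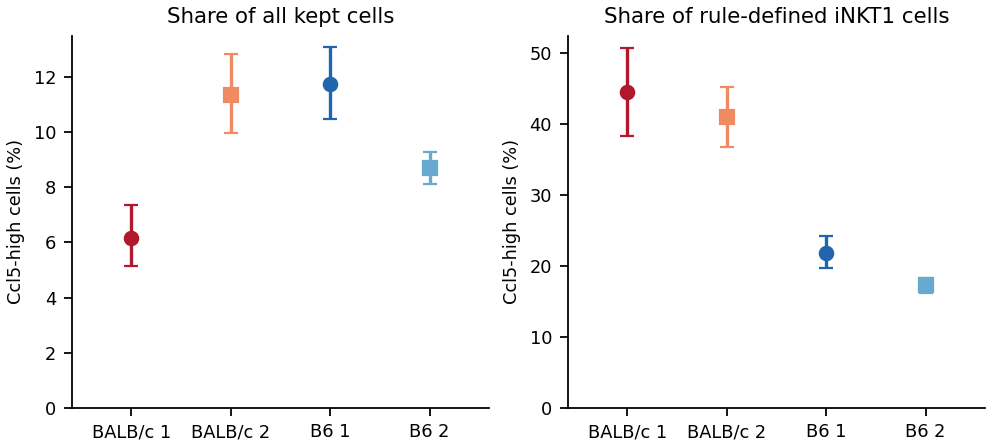
Share of Ccl5-high cells in each library, as a percent of all quality-filtered cells (left) and of cells with the iNKT1 profile (right), with exact 95% binomial intervals for counting error. The strains overlap on the left, and on the right BALB/c lies at 41.002% and 44.5% and B6 at 17.3% and 21.9%.

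Within the Ccl5-high cells, Ccl5 itself was more abundant per cell in BALB/c. The median Ccl5 count was 46 and 31 UMIs per cell in BALB/c, with quartiles of 15 to 75 and 12 to 59. In B6 it was 13 and 11 UMIs, with quartiles of 5 to 40.5 and 4 to 27. Summed over cells, Ccl5 (chromosome 11, 83525778 to 83530518, GRCm38) reached 7479 and 5816 CPM in BALB/c and 3539 and 2747 CPM in B6. Gzma was split differently. It was at 0 UMIs in 43.6% and 43.4% of Ccl5-high cells in BALB/c, against 41.6% and 38.4% in B6, while its upper quartile was 17 and 16 UMIs in BALB/c and 14 in both B6 libraries. A Gzma UMI was also found in 10.7% to 16.0% of double-positive thymocyte-like cells, at median depths of 2392 to 3118 UMIs. In the deeper Ccl5-low cells it was found in 2.05% to 6.23%. The rule held this share low, since it limits these cells to under 4 UMIs of Ccl5 and Gzma. The 2 ranges are therefore no comparison of Gzma between these cells. A Ccl5 UMI was found in 0.535% to 2.63% of the double-positive thymocyte-like cells. The source of their Gzma UMIs was not tested.

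The name Ccl5-high does not cover every chosen cell. Cells that met the rule on Gzma alone, with no Ccl5 UMI, were 0.855% and 4.07% of the Ccl5-high cells in BALB/c, against 10.0% and 13.7% in B6. Cells with UMIs of both genes were 55.6% and 52.5% in BALB/c, against 48.4% and 47.8% in B6. Cells near the threshold were more numerous in B6, which also had more iNKT1 cells. Those just inside, with 4 or 5 UMIs of Ccl5 and Gzma, numbered 6 and 10 in BALB/c, against 44 and 118 in B6. They were 2.28% and 1.86% of iNKT1 cells in BALB/c, against 3.45% and 2.46% in B6. Those just outside, with 2 or 3 UMIs, numbered 8 and 30 in BALB/c, against 102 and 282 in B6. They were 3.04% and 5.57% of iNKT1 cells in BALB/c, against 8.01% and 5.87% in B6. By share, BALB/c 1 and B6 2 were thus close just inside, and BALB/c 2 and B6 2 just outside. A threshold of 2 UMIs would choose 125 and 251 cells in BALB/c, against 381 and 1112 in B6, and a threshold of 8 UMIs 108 and 199 cells in BALB/c, against 212 and 641 in B6. Just inside, Klf2 stood at 0.507 and 10.6 UMIs per 10000 in BALB/c, against 2.56 and 4.09 in B6. Just outside it stood at 4.59 and 6.16 in BALB/c, against 3.03 and 3.01 in B6. It was thus lower just inside than just outside in BALB/c 1 and B6 1 and higher in BALB/c 2 and B6 2. In cells with 10 or more UMIs of Ccl5 and Gzma it lay between 7.22 and 11.3 in 3 libraries and at 13.04 in BALB/c 2, and in cells with 0 or 1 between 1.31 and 3.06 in all 4.

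**Figure D2:**
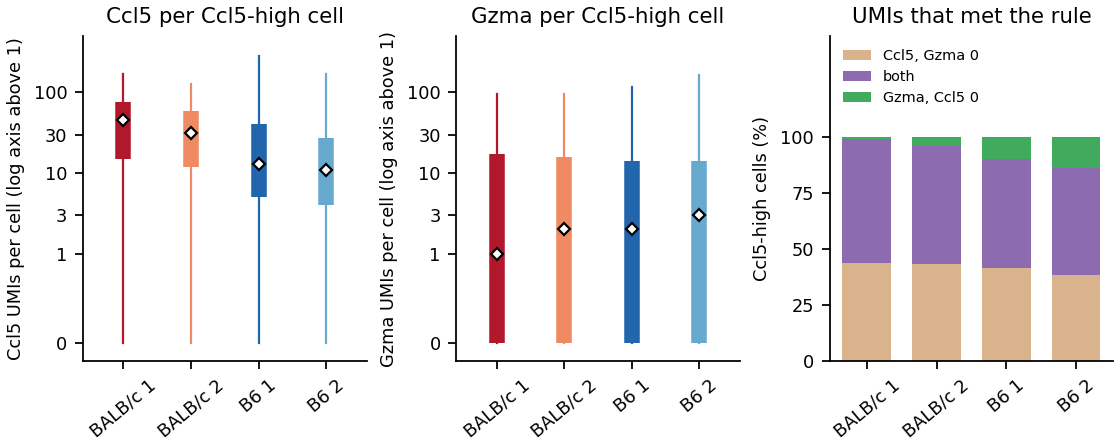
UMIs of Ccl5 (left) and Gzma (middle) per Ccl5-high cell in each library on a log axis above 1, with the median (diamond), the quartiles (bar) and the full range (line), and (right) the percent of Ccl5-high cells with Ccl5 only, both or Gzma only. Ccl5 medians are 46 and 31 UMIs in BALB/c, against 13 and 11 in B6, and cells without a Ccl5 UMI are most frequent in B6 2.

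Of the iNKT1 genes of the rule, Nkg7, Klrd1 and Il2rb differed little between states. Nkg7, a cytotoxic granule membrane protein, stood at 2029 and 1913 CPM in BALB/c and 2058 and 1900.1 CPM in B6 Ccl5-high cells, against 1598 to 1636 CPM in Ccl5-low cells. Klrd1 (CD94) stood at 621 to 794 CPM in Ccl5-high and 649.7 to 737 CPM in Ccl5-low cells. Il2rb, the receptor chain for interleukins 2 and 15, stood at 799.8 to 910.5 CPM in Ccl5-high and 866 to 970.4 CPM in Ccl5-low cells. Izumo1r, an iNKT2 gene of the rule, was lower in Ccl5-high cells of all 4 libraries, at 20.4 and 15.4 CPM in BALB/c and 54.1 and 55.8 CPM in B6, against 196 to 215 CPM in Ccl5-low cells.

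Compared with Ccl5-low cells, Ccl5-high cells carried more RNA of thymic exit genes, Ifitm and S100 families and the adaptors Fcer1g and Tyrobp. They carried less RNA of CD4, Il4 and genes induced by TCR stimulation. These contrasts are descriptions, since the rule split the cells. Among 6006 genes at 20 CPM or more outside the rule, 657 (10.9%) were higher in Ccl5-high cells of all 4 libraries and 1321 (22%) were lower, while 26 (0.433%) were at least 2-fold higher and 8 (0.133%) at least 2-fold lower in all 4. The median gene was at -0.05 on the log2 scale. All log2 ratios between states are on the scale of CPM plus a pseudocount of 1, which understates the ratio of low genes.

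Of 18 S100, annexin and Ifitm genes, 15 were higher in Ccl5-high cells of all 4 libraries, with a median log2 ratio of 0.87 for the list. Ifitm1, Ifitm2 and Ifitm3 encode interferon-inducible membrane proteins that restrict virus entry, and S100a4 and S100a6 encode calcium-binding proteins of effector and memory cells. Ifitm2 stood at 466 and 541 CPM in BALB/c and 357 and 222 CPM in B6 Ccl5-high cells, against 111 and 129 CPM in BALB/c and 28.4 and 16.6 CPM in B6 Ccl5-low cells (mean log2 ratio 2.85). Ifitm1 was scarcer, at 149 and 65.5 CPM in BALB/c and 22.9 and 43.4 CPM in B6 Ccl5-high cells, against 0.281 to 6.07 CPM in Ccl5-low cells (4.23). S100a4 stood at 610.0 and 667 CPM in BALB/c and 531 and 519.7 CPM in B6 Ccl5-high cells, against 106 to 222 CPM in Ccl5-low cells (2.02). In none of these 3 genes did the Ccl5-high libraries overlap the Ccl5-low ones.

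The promoters of the 3 Ifitm genes and of Gzma are shown because the Ifitm genes lie together on chromosome 7 and were all higher with Gzma and Ccl5. Sequences are from RefSeq on GRCm38.p6, each 5′ to 3′ on the gene's own strand and cut before the first annotated exon. Capitals mark matches, on either strand, to the core of the interferon-stimulated response element (GAAANNGAAA) and to the Runx core (TGTGGT). In Gzma both matches are on the other strand, and in Ifitm2 the match is on the strand shown.
Gzma (chr13:113100982-113101231, minus strand): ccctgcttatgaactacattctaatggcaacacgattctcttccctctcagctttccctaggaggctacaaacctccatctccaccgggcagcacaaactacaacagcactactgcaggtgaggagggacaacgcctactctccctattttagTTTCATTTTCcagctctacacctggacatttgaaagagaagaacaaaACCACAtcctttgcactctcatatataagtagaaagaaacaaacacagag
Ifitm1 (chr7:140967826-140968027, plus strand): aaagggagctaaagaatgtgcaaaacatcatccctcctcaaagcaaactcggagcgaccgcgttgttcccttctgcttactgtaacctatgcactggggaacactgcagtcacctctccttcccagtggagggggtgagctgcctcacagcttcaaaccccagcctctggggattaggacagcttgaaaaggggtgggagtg
Ifitm2 (chr7:140955988-140956211, minus strand): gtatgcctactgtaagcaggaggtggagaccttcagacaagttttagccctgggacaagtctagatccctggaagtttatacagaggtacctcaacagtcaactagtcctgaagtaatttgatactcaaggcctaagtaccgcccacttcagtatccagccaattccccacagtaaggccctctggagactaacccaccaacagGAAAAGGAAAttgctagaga
Ifitm3 (chr7:141010771-141010994, minus strand): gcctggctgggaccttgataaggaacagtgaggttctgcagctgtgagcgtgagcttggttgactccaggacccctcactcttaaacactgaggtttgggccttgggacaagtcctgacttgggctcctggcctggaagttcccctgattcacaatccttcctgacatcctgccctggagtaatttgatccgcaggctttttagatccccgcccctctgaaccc
In Gzma the response element match lay 97 to 88 bases before the RefSeq start, and the Runx match 50 to 45 bases before it. In Ifitm2 the response element match lay 46 to 37 bases before the start. The Ifitm sequences are shorter than the window used for the background. Over the 250 bases upstream of 27025 genes, 3.46% held a GAAANNGAAA match on either strand and 15.9% a TGTGGT match. Neither the T-box core TCACAC (13.9% of genes) nor the Klf element CCACACCC (3.68%) was found in the 4 sequences, and Ifitm1 and Ifitm3 held none of the 4 motifs. A match is a string of letters and not evidence of binding.

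Genes of thymic exit and retention followed, with 8 of 14 higher and 4 of 14 lower in Ccl5-high cells of all 4 libraries. Klf2, a transcription factor needed for T cells to leave the thymus (chromosome 8, 72319033 to 72321656), stood at 1042 and 1242 CPM in BALB/c and 645 and 646 CPM in B6 Ccl5-high cells. In Ccl5-low cells it stood at 218 and 334 CPM in BALB/c and 157 and 144 CPM in B6, with no overlap between states (mean log2 ratio 2.09). A Klf2 UMI was found in 91.5% and 95.02% of BALB/c and 81.0% and 85.2% of B6 Ccl5-high cells, against 32.4% to 44.7% of Ccl5-low cells at similar depth, and in 2.11% to 7.46% of double-positive thymocyte-like cells. S1pr1, the sphingosine-1-phosphate receptor that guides egress, was low but ordered the same way, at 29.3 and 23.4 CPM in BALB/c and 15.4 and 20.7 CPM in B6, against 2.17 to 7.06 CPM in Ccl5-low cells (2.22). Zfp683 (Hobit), a factor of tissue-resident lymphocytes, was lower in Ccl5-high cells of all 4 libraries (-0.48), and Gpr183, an oxysterol receptor, likewise (-0.72).

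NK-type receptors and adaptors were mixed by state. Of 12 CD94, NKG2 and NK1.1 family genes 5 were higher and 2 lower in Ccl5-high cells of all 4 libraries, and of 5 Ly49 genes 3 were higher and 0 lower. Of 18 adaptors with activation motifs and proximal kinases 4 were higher and 11 lower, with a median log2 ratio of -0.17, so Fcer1g and Tyrobp ran against most of their list. Fcer1g, an adaptor with an activation motif, stood at 685 and 747 CPM in BALB/c and 725 and 632 CPM in B6 Ccl5-high cells, against 319 and 364 CPM in BALB/c and 240.0 and 219 CPM in B6 Ccl5-low cells (mean log2 ratio 1.31). Tyrobp (DAP12), another such adaptor, stood at 157 and 98.3 CPM in BALB/c and 63.9 and 55 CPM in B6, against 4.15 to 32.1 CPM in Ccl5-low cells (2.86). Ncr1, the activating receptor NKp46, stood at 58.6 and 34.1 CPM in BALB/c and 11.2 and 12.6 CPM in B6, against 0 to 3.47 CPM (3.99). Its RNA was spread thinly, with a UMI in 12.0% and 7.69% of BALB/c and 2.87% and 2.53% of B6 Ccl5-high cells. Of the Ccl5-high cells with an Eomes or Ncr1 UMI, 6 of 17 in BALB/c 1, 17 of 33 in BALB/c 2, 3 of 8 in B6 1 and 3 of 23 in B6 2 had a UMI of an invariant alpha segment. Trbv13 was the most abundant beta segment in 11 of 15, 22 of 31, 2 of 7 and 16 of 23 of them in the same order. These are the cells with at least 2 UMIs of beta segments. Whether all of them are iNKT cells was not tested.

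The cytotoxic list was mixed, with 7 of 16 genes higher and 3 lower in Ccl5-high cells of all 4 libraries. Gzmb (granzyme B) stood at 434 and 477 CPM in BALB/c and 630.3 and 693 CPM in B6 Ccl5-high cells, against 198 and 336 CPM in BALB/c and 457 and 546 CPM in B6 Ccl5-low cells (mean log2 ratio 0.61). Prf1 (perforin) stood at 71.4 to 102 CPM in Ccl5-high and 44.5 to 53.9 CPM in Ccl5-low cells (0.79). Integrin and adhesion genes were higher in 10 of 15 cases and lower in 3. Itga4, the alpha-4 integrin subunit, stood at 179.6 and 149 CPM in BALB/c and 47.6 and 57.3 CPM in B6 Ccl5-high cells, against 15.5 to 47.2 CPM in Ccl5-low cells (1.69), and Ly6c2, a Ly6C antigen of effector cells, had a mean log2 ratio of 1.18. Other genes among the 15 with the largest ratios were Reck (2.40), Snx9 (2.04), Kcnj8 (1.82), Wdr95 (1.82), G0s2 (1.78) and Dgkh (1.64).

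Cytokine RNA split by gene. Ifng stood at 148 and 99 CPM in BALB/c and 44.8 and 58.4 CPM in B6 Ccl5-high cells, against 53.9 and 45.9 CPM in BALB/c and 20.3 and 23.8 CPM in B6 Ccl5-low cells (mean log2 ratio 1.22). Il4 ran the other way, at 12.7 and 6.69 CPM in BALB/c and 20.1 and 29.6 CPM in B6 Ccl5-high cells, against 38.3 and 38.6 CPM in BALB/c and 56.1 and 68 CPM in B6 Ccl5-low cells (-1.62). Cd4 (-1.58) and Cd8b1 (-2.02) were lower in Ccl5-high cells of all 4 libraries. So were Egr1 (-1.44), an immediate early gene of TCR signalling, and Pdcd1 (-1.18), which encodes the inhibitory receptor PD-1. A Cd8b1 UMI was found in 1.71% and 1.81% of BALB/c and 3.23% and 3.01% of B6 Ccl5-high cells. In Ccl5-low cells it was 6.16% and 2.83%, and 2.21% and 3.25%, so B6 1 ran the other way. For Cd8a the shares were 5.13% and 5.43%, and 2.15% and 2.53%, in Ccl5-high cells. They were 5.48% and 2.83%, and 1.51% and 1.96%, in Ccl5-low cells, lower in Ccl5-high cells of BALB/c 1 only. No gene of the TCR-induced list was higher in all 4 libraries and 6 of 13 were lower. Of 12 costimulatory and inhibitory receptors 8 were lower and 1 higher, and of 14 glycolysis genes 9 were lower and 1 higher. Atp8a2 (-1.92), Ckb (-1.57), Ephx1 (-1.38), Podnl1 (-1.31), Ramp1 (-1.29), Bcl2a1d (-1.25) and Prrt1 (-1.19) were also among the 15 lowest ratios. Ccl1 was among them (-2.02) through BALB/c 1 alone, where Ccl5-low cells held 104 CPM against 0.141 to 0.562 CPM in the other libraries, and Cd81 (-1.90) was nearly equal between states in B6 2.

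**Figure D3:**
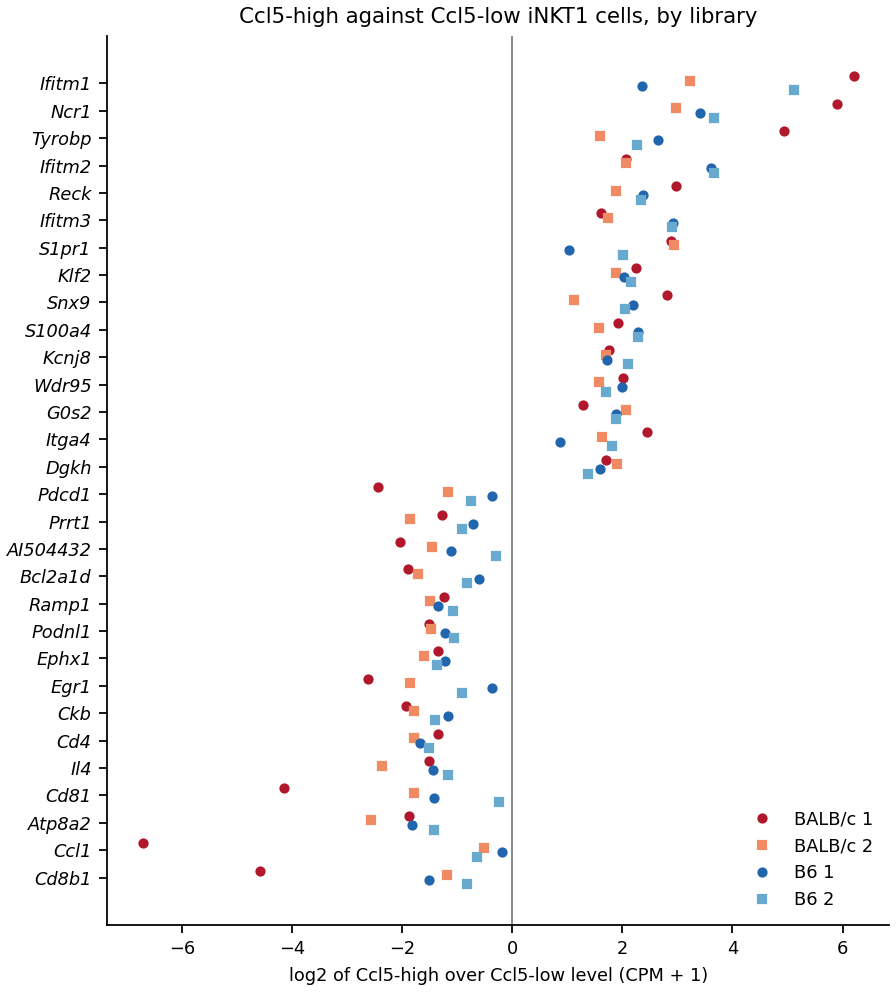
The 15 genes with the largest and the 15 with the smallest log2 ratio of Ccl5-high over Ccl5-low level (CPM plus 1), 1 point per library, among genes with the same sign in 4 of 4 libraries. Ifitm1, Ncr1 and Tyrobp lie farthest right with a wide spread, Klf2 is tight near 2.09, and Ccl1 and Cd8b1 lie far left in BALB/c 1.

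Ccl5-high cells with a Gzma UMI were also set beside those without one, again as a description because Gzma is in the rule. In 1067 of 5985 genes (17.8%) the sign was the same in 4 of 4 libraries. Cells with Gzma had more Ifitm1 (mean log2 ratio 1.38), Ifitm2 (1.18), Ccl5 (0.65), Gzmb (0.60), Klf2 (0.48) and Fcer1g (0.43). They had less Egr1 (-1.77), Ckb (-1.76), Cd4 (-1.35) and Ly6a (-1.41). Egr1 stood at 2.44 and 3.56 CPM in BALB/c and 29.1 and 19.7 CPM in B6 cells with Gzma, against 21.3 and 21.5 CPM in BALB/c and 66.1 and 38.2 CPM in B6 cells without it. Klf2 stood at 1128 and 1359.8 CPM in BALB/c and 752 and 761 CPM in B6 cells with Gzma, against 947 and 1089 CPM in BALB/c and 499 and 456 CPM in B6 cells without it. The direction of these contrasts was that of Ccl5-high against Ccl5-low cells for Klf2, Egr1, Cd4 and the Ifitm genes named.

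The strains were then compared within Ccl5-high cells. UMIs were summed per library and tested with edgeR's quasi-likelihood method, which the rule did not use. In BALB/c, Ccl5-high cells had more RNA of Ifng, Eomes, Ncr1, Klf2, Itga4 and heat shock genes. They had less RNA of Zfp683, Id2, Lgals1 and Lgals3, and fewer UMIs of several NK receptors. How BALB/c reads of these receptors map to the B6 genome was not tested. Outside the rule genes, 281 of 8832 genes tested (3.18%) had an adjusted p under 0.05. Of the tested genes, 147 were higher in BALB/c (1.66%) and 134 lower (1.52%). Of the 281 calls, 169 (60.1%) were also called in Ccl5-low cells, all in the same direction. Most strain calls were thus not particular to Ccl5-high cells. The libraries of the strains did not overlap in 3862 genes (43.7%), so a lack of overlap alone says little here. The median log2 fold change was -0.01. The count was 21 without BALB/c 2, 55 without BALB/c 1, 574 without B6 2 and 1673 without B6 1, and each such fit takes the spread of a single remaining library from the pair of the other strain. Of 57 named genes that did not pass, 33 passed without B6 1 and 20 without B6 2. Of 56 named genes that passed, all 56 still passed without either B6 library, 28 without BALB/c 1 and 13 without BALB/c 2. CPM values of this comparison are scaled by edgeR's TMM factors.

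Among cytokines and chemokines, 1 of 10 tested cytokine genes and 0 of 1 tested chemokine genes outside the rule passed. Ifng (chromosome 10, 118441046 to 118445892) stood at 151 and 102 CPM in BALB/c and 46.2 and 55.6 CPM in B6, with no overlap (126 ± 34.7 and 50.9 ± 6.65, SD, n = 2 each). The log2 fold change was 1.26 (SE 0.21, edgeR adjusted p = 0.0105), and the adjusted p was 0.223 without BALB/c 1 and 0.0685 without BALB/c 2. An Ifng UMI was found in 53.8% and 41.2% of Ccl5-high cells in BALB/c, against 21.9% and 31.3% in B6. Il4 stood at 13 and 6.87 CPM in BALB/c and 20.7 and 28.2 CPM in B6 and did not pass (log2 fold change -1.44, edgeR adjusted p = 0.0849, and 1.67e-05 without B6 1). Of 17 cytokine receptor genes only Il21r passed, lower in BALB/c (-0.71), and of 7 chemokine receptor genes only Ccr8, also lower (-0.78). Neither kept its call without BALB/c 1 (adjusted p = 0.334 for Il21r and 0.186 for Ccr8) or without BALB/c 2 (0.526 and 0.534), or in DESeq2's Wald test (0.326 and 0.166).

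Of 21 effector and innate-like transcription factors 2 rose and 2 fell in BALB/c. Eomes, a T-box factor of NK cells and memory T cells (chromosome 9, 118478212 to 118486132), stood at 19.5 and 28.2 CPM in BALB/c and 0.962 and 0.757 CPM in B6 (log2 fold change 4.84, SE 0.46, edgeR adjusted p = 0.000547). An Eomes UMI was seen in 6.84% and 9.50% of Ccl5-high cells in BALB/c, against 0.358% and 0.482% in B6. Eomes was likewise higher in BALB/c among Ccl5-low cells (7.21), and the interaction of strain with state did not pass (edgeR adjusted p = 0.668). Zfp683 stood at 87.1 and 67.3 CPM in BALB/c and 182 and 183 CPM in B6 (-1.26, SE 0.16, adjusted p = 0.00333). Id2, an inhibitor of E proteins, stood at 672 and 635 CPM in BALB/c and 1315 and 1231 CPM in B6 (-0.96, SE 0.14, adjusted p = 0.00639). Klf6 was the other factor that rose (0.78, adjusted p = 0.0464). Without BALB/c 2 the edgeR adjusted p was 0.142 for Eomes, 0.219 for Zfp683, 0.455 for Id2 and 0.554 for Klf6, and without BALB/c 1 it was 0.0351, 0.068, 0.369 and 0.228 for the same genes. Tbx21 (-0.14, adjusted p = 0.78), Gata3 (0.20, 0.701) and Hopx (-0.54, 0.111) did not pass, although Hopx passed without B6 1 (8.2e-05) and without B6 2 (4.3e-08). Klf6 passed in 5 of 12 alternatives.

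Of 15 tested genes of thymic exit and retention, 4 rose and 1, Zfp683, fell. Klf2 stood at 1063 and 1276 CPM in BALB/c and 665 and 615 CPM in B6 (log2 fold change 0.87, SE 0.15, edgeR adjusted p = 0.0171). Klf3, a related factor (0.85, edgeR adjusted p = 0.0271), and Gpr183 (1.07, 0.0323) rose as well. S1pr1 stood at 29.9 and 24 CPM in BALB/c and 15.9 and 19.7 CPM in B6 and did not pass (0.54, 0.417). The edgeR adjusted p of Klf2 was 0.316 without BALB/c 1 and 0.534 without BALB/c 2, and that of Klf3 was 0.135 and 0.507 in the same fits. Gpr183 was named after its values were seen, and no fit without a library is given for it. Early T-lineage genes split, with Tcf7 higher (0.70, adjusted p = 0.0377) and Tox lower (-1.84, 0.0498) among 6 tested. Without BALB/c 1 the edgeR adjusted p was 0.424 for Tcf7 and 0.449 for Tox, and without BALB/c 2 it was 0.336 for Tcf7 and 0.544 for Tox. Tcf7 passed in 6 of 12 alternatives and Tox in 7 of 12, and without cells that had a Cd8a or Cd8b1 UMI the adjusted p of Tcf7 was 0.0506. Summed CD8 T cell markers moved with strain as given above (236 and 237 CPM in BALB/c and 152 and 205 CPM in B6), and their part in these results was not tested. Cd8a stood at 23.4 and 37.8 CPM in BALB/c and 3.37 and 5.45 CPM in B6 (2.72, adjusted p = 0.00412, and 0.31 without BALB/c 2), and leaving out cells with a Cd8a or Cd8b1 UMI gave 266 calls over all genes, 256 of them among the 281.

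NK receptors moved in both directions. Of 14 CD94, NKG2 and NK1.1 family genes 2 rose and 6 fell, and of 8 Ly49 genes 2 rose and 4 fell. Klrb1c, which encodes NK1.1, stood at 3.9 and 12.4 CPM in BALB/c and 527 and 471 CPM in B6 (log2 fold change -5.75, SE 0.30, edgeR adjusted p = 2.52e-05). Klre1 fell (-1.33), at 119.6 and 116 CPM in BALB/c and 301 and 292 CPM in B6, as did Cd160 (-2.27) and Klri2 (-2.16), while Klri1 rose (4.54) to 52 and 44 CPM in BALB/c, against 0.481 and 2.57 CPM in B6. Ncr1 rose (1.95, SE 0.30, adjusted p = 0.00809) to 59.8 and 35 CPM in BALB/c, against 11.5 and 12 CPM in B6. Tyrobp was the only gene of 20 in the list of activating adaptors and proximal kinases that passed, at 159.9 and 101 CPM in BALB/c and 65.9 and 52.4 CPM in B6 (1.13, adjusted p = 0.0283). Fcer1g stood at 699 and 767 CPM in BALB/c and 747 and 602 CPM in B6 and did not pass (0.12, 0.806, and 0.0125 without B6 1). The Tyrobp call was also lost without cells that had a Cd8a or Cd8b1 UMI (edgeR adjusted p = 0.117), after thinning to 5000 UMIs (0.13) and at a threshold of 8 UMIs (0.0561). Without BALB/c 1 the edgeR adjusted p was 0.39 for Tyrobp, 0.123 for Ncr1 and 0.101 for both Klre1 and Klri2, and without BALB/c 2 it was 0.0934 for Tyrobp, 0.0577 for Ncr1 and Cd160, 0.147 for Klre1, 0.178 for Klri2 and 0.0588 for Klri1.

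The Ly49 (Klra) and Ly6c genes have near-identical copies and differ in sequence and gene content between these strains, and reads were aligned to mm10, which is the B6 genome. For these genes a difference in RNA level and a difference in how BALB/c reads map cannot be told apart. Mapping was not tested for other genes either, among them Klrb1c, Klri1, Klre1, Cd160, Trim12a, Oas1a and Ifi213. Klra9 stood at 1.3 and 2.75 CPM in BALB/c and 707 and 673 CPM in B6 (log2 fold change -8.24, edgeR adjusted p = 9.15e-07). Klra6, Klra8 and Klra10 had 0 UMIs in the Ccl5-high cells of both BALB/c libraries and were at least 23.0-fold, 18.9-fold and 23.5-fold lower there, against a floor of 3 UMIs over the group. Klra3 rose (1.67, adjusted p = 0.000464) to 399 and 452 CPM in BALB/c, against 131 and 137 CPM in B6, and Klra7 rose (1.15, 0.00422). Ly6c1 stood at 768 and 793 CPM in BALB/c and 3.37 and 1.51 CPM in B6 (8.55), and its neighbour Ly6c2 at 399 and 346 CPM in BALB/c and 1982 and 1437 CPM in B6 (-2.20). The edgeR adjusted p without BALB/c 2 was 0.0588 for Klra3 and Klra6, 0.0577 for Klra10, 0.225 for Klra7 and 0.133 for Ly6c2, and without BALB/c 1 it was 0.0951 for Klra7 and 0.0869 for Ly6c2. Of 18 genes at loci known to be polymorphic between strains, 15 passed, 3 higher and 12 lower.

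Cytotoxic and glycolysis genes gave no call between the strains, though some passed without a B6 library. Of 17 tested cytotoxic genes 0 passed. Over all tested genes 3.18% passed, so 0 calls in a list of 17 or 15 genes do not set it apart from other genes. Gzmb stood at 443 and 490.4 CPM in BALB/c and 649.8 and 659 CPM in B6 (log2 fold change -0.49, SE 0.14, edgeR adjusted p = 0.13). The strains did not overlap, and Gzmb passed without B6 1 (-0.50, 1.57e-06), without B6 2 (-0.48, 4.18e-05) and without the low-count filter. Prf1 stood at 104 and 90.7 CPM in BALB/c and 73.6 and 73.3 CPM in B6 (0.39, SE 0.15, 0.26). No gene of 15 in the glycolysis list and of 15 in the TCR-induced list passed, but without B6 2 Egr1 did (-1.98, edgeR adjusted p = 8.17e-09), lower in BALB/c, as did Cd69 (0.69, 0.00143), higher in BALB/c. Among 17 integrin and adhesion genes 2 rose, Itga4 and Ly6c1, and Ly6c2 fell. Itga4 (chromosome 2, 79255426 to 79333123) stood at 183 and 153 CPM in BALB/c and 49.1 and 54.5 CPM in B6 (1.68, SE 0.16, adjusted p = 0.000547), and it passed in all 12 alternatives. Costimulatory and inhibitory receptors gave 2 of 17, with Slamf6 (2.33, adjusted p = 0.0229) and Lair1 (1.70, 0.0421) higher, both at under 20 CPM and both lost without BALB/c 1 (0.367 and 0.271) and without BALB/c 2 (0.507 and 0.619). Slamf6 passed in 8 of 12 alternatives and Lair1 in 6 of 12.

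Of 18 S100, annexin and Ifitm genes, Ifitm3 rose and Lgals1, Lgals3 and Crip1 fell in BALB/c. Ifitm3 stood at 311 and 291 CPM in BALB/c and 164 and 132 CPM in B6 (log2 fold change 1.03, SE 0.15, edgeR adjusted p = 0.00639). Lgals1 and Lgals3, which encode galectins, stood at 459 and 496 CPM (Lgals1) and 125 and 137 CPM (Lgals3) in BALB/c, against 946 and 876 CPM (Lgals1) and 246 and 254 CPM (Lgals3) in B6, and both had a log2 fold change of -0.93 (adjusted p = 0.00809 and 0.00682). Crip1, a LIM-domain protein, stood at 435 and 433 CPM in BALB/c and 1191 and 742 CPM in B6 (-1.15, 0.0224). Without BALB/c 1 the edgeR adjusted p was 0.236, 0.429, 0.3 and 0.453 for Ifitm3, Lgals1, Lgals3 and Crip1, and without BALB/c 2 it was 0.235, 0.395, 0.258 and 0.503.

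Heat shock genes were higher in BALB/c, with 7 of 19 tested genes raised and none lowered, and the list's median log2 fold change was 0.74. Hspa1b, an inducible Hsp70 gene, stood at 264 and 439 CPM in BALB/c and 29.8 and 17.6 CPM in B6 (3.98, SE 0.31, edgeR adjusted p = 0.000223), and its near-identical neighbour Hspa1a at 123 and 240.4 CPM in BALB/c and 13.9 and 6.66 CPM in B6 (4.36, 0.000491). Hsph1 (1.74) and the cochaperone Dnajb1 (1.56) rose as well, and without BALB/c 2 their adjusted p was 0.0632 and 0.0921. Between Ccl5-high and Ccl5-low cells their mean log2 ratios were 0.06 for Hspa1a and 0.09 for Hspa1b, with mixed signs over the libraries. The list's summed level was 9142 and 10239 CPM in BALB/c and 6468 and 6750 CPM in B6 Ccl5-high cells. It moved with every strain difference above, and its part in them was not tested.

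Among 30 interferon response genes outside the rule 1 rose, Gbp2, at 75.4 and 70.7 CPM in BALB/c and 43.8 and 38.2 CPM in B6 (log2 fold change 0.84, edgeR adjusted p = 0.0371), and 5 fell. Gbp2 was named after its values were seen. Ifi213 stood at 1.3 and 2.06 CPM in BALB/c and 86.1 and 65.9 CPM in B6 (-5.35, adjusted p = 0.000167). Oas1a and Oasl2 had 0 UMIs in BALB/c and were at least 16.9-fold and 6.49-fold lower there. The largest differences over all genes included Pianp at 55.9 and 48.8 CPM in BALB/c and 0.481 and 0.151 CPM in B6, Scg5 (5.21), Tpm3-rs7 (5.06) and Ada (2.42) above, and Trim12a (0 UMIs in BALB/c, at least 68.7-fold lower), Coro2a, Styk1 (-3.60), Ly6a (-3.25), Pttg1 (-3.12), Ly6e (-2.90) and Galnt10 (-3.05) below. Gimap7, a GTPase of lymphocyte survival, rose (2.24) to 139 and 91.4 CPM in BALB/c, against 24.5 and 23.5 CPM in B6. Coro2a had 1 UMI in BALB/c, a ratio of B6 over BALB/c level of 517 (95% interval 92.7 to 20442, counting error only). The calls for Coro2a, Galnt10 and Oasl2 were lost without BALB/c 1 (edgeR adjusted p = 0.0512, 0.0773 and 0.198). Calls for Ada, Coro2a, Galnt10, Styk1, Pttg1, Tpm3-rs7, Ly6e, Oas1a and Oasl2 were lost without BALB/c 2, at edgeR adjusted p of 0.0506 for Ly6e to 0.385 for Oasl2.

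**Figure D4:**
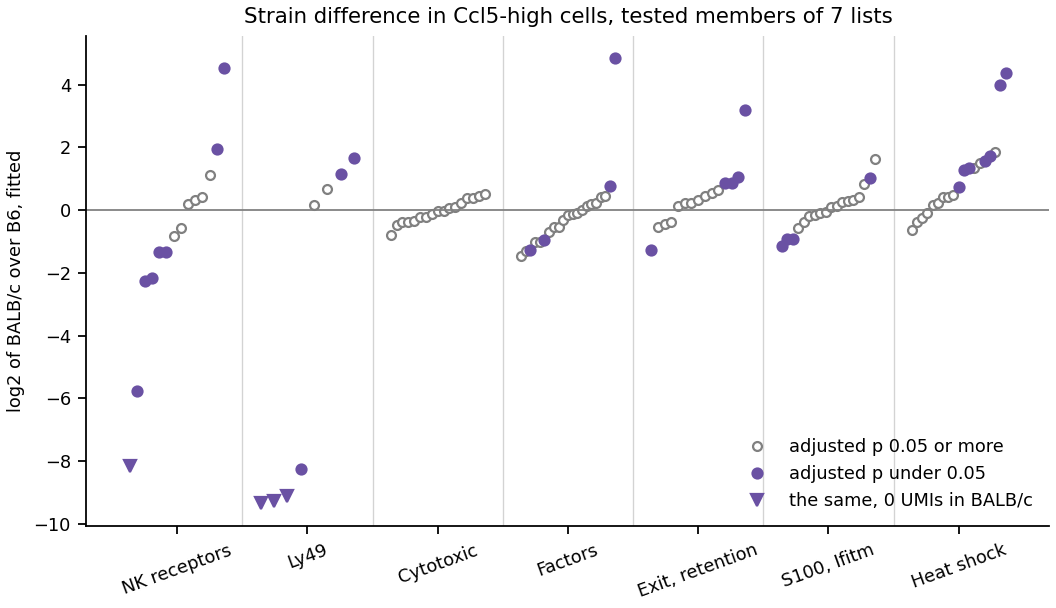
Fitted log2 fold change of BALB/c over B6 in Ccl5-high cells for every tested gene of 7 lists, filled where the edgeR adjusted p was under 0.05 and drawn as a triangle where BALB/c had 0 UMIs, so that the fitted size is no estimate. No cytotoxic gene is filled, 7 heat shock genes are filled above 0, and NK and Ly49 receptors lie on both sides.

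It was then tested whether the strain difference in Ccl5-high cells differed from that in Ccl5-low cells, by an interaction of strain and state fitted to 8 sums, 2 per library, that blocks on the library. In Ccl5-low cells 254 of 10086 genes (2.52%) passed between strains. The interaction passed in 39 of 9596 genes (0.406%), with 7 more positive in Ccl5-high cells (0.0729%) and 32 more negative (0.333%). In the S100, annexin and Ifitm list 2 genes were more positive and 6 more negative of 18. The rule split both strains at the same UMI count, but the chosen cells were not alike. Their median Ccl5 count was 46 and 31 UMIs in BALB/c, against 13 and 11 in B6. Cells chosen on Gzma with no Ccl5 UMI were 0.855% and 4.07% in BALB/c, against 10.0% and 13.7% in B6. The part of this unlike split in the interaction was not tested. Each strain difference below is BALB/c over B6, and CPM values are without scaling factors.

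Ifitm2 and Ifitm3 had a smaller strain difference in Ccl5-high cells. Ifitm2 stood at 466 and 541 CPM in BALB/c and 357 and 222 CPM in B6 Ccl5-high cells, and at 111 and 129 CPM in BALB/c and 28.4 and 16.6 CPM in B6 Ccl5-low cells. Its interaction was -1.63 (SE 0.11, edgeR adjusted p = 1.63e-09), since its level between states differed by a log2 ratio of 2.06 in both BALB/c libraries and by 3.61 and 3.66 in B6. Ifitm3 stood at 304 and 283 CPM in BALB/c and 159 and 139 CPM in B6 Ccl5-high cells, and at 98.4 and 83.6 CPM in BALB/c and 20.2 and 17.8 CPM in B6 Ccl5-low cells (interaction -1.25, SE 0.13, adjusted p = 4.56e-06). Ifitm1 followed no such pattern that passed (-0.87, 0.934), at 0.281 to 6.07 CPM in Ccl5-low cells. Both Ifitm2 and Ifitm3 passed in all 11 alternatives.

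Lgals3 ran the other way, and Id2 differed more between strains in Ccl5-high cells. Lgals3 stood at 122 and 134 CPM in BALB/c and 239 and 266 CPM in B6 Ccl5-high cells, and at 21.8 and 35.5 CPM in BALB/c and 137 and 151 CPM in B6 Ccl5-low cells. Its deficit in BALB/c was therefore smaller in Ccl5-high cells (interaction 1.25, SE 0.17, edgeR adjusted p = 0.000146). Id2 stood at 658 and 619 CPM in BALB/c and 1275 and 1294 CPM in B6 Ccl5-high cells, and at 1021 and 1073 CPM in BALB/c and 1483 and 1579 CPM in B6 Ccl5-low cells (-0.47, SE 0.06, adjusted p = 0.000144). Among genes of effector cells S100a4 (-0.60), S100a6 (-0.36), Vim (-0.41), Lgals1 (-0.52) and Fcer1g (-0.49) also passed with a more negative strain difference, and each was higher in Ccl5-high than in Ccl5-low cells of all 4 libraries. They are list members outside the rule for named interaction genes and were singled out after their values were seen. Klra5 stood at 449.5 and 360.5 CPM in BALB/c and 261 and 257 CPM in B6 Ccl5-high cells, against 270.5 and 349 CPM in BALB/c and 96 and 107 CPM in B6 Ccl5-low cells (-1.03, SE 0.12, 1.84e-05).

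**Figure D5:**
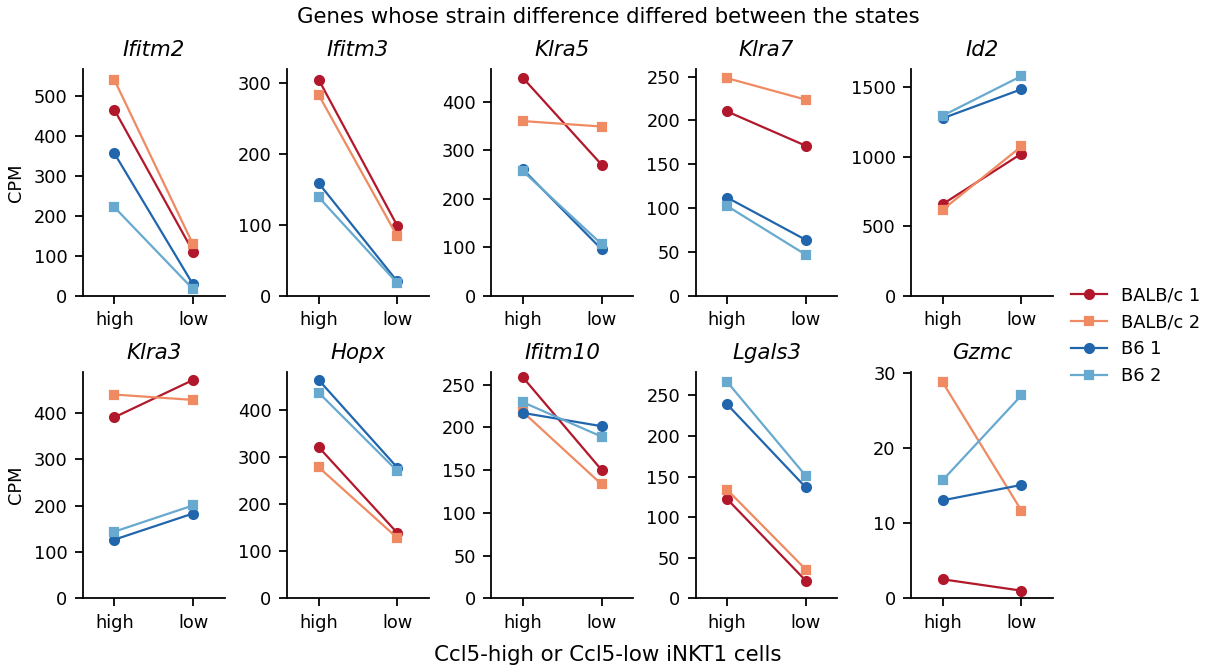
Level in CPM of the 10 named interaction genes in Ccl5-high and Ccl5-low cells, 1 line per library. The BALB/c and B6 lines of Ifitm2 and Ifitm3 are closer in ratio in Ccl5-high than in Ccl5-low cells, those of Id2 are farther apart, and the lines of Gzmc cross.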

How the data were processed

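Each strain, BALB/c and B6, contributed 2 libraries of sorted thymic iNKT cells. The deposited matrices hold raw UMI counts per gene and cell for 32285 genes, as whole numbers not normalized by the authors. They were made with Cell Ranger 6.0.0 or 7.1.0 per the file headers, and with Cell Ranger 7.1.0 and mm10 per the submitters' processing notes. The sources used here do not give whether intronic reads entered the counts.

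Cells with at least 500 genes, at least 1000 UMIs and at most 10% mitochondrial UMIs were kept (1896 and 1947 in BALB/c, 2378 and 9546 in B6). Doublets were scored with Scrublet (scanpy 1.11.5, Python 3.11.15) and stayed in, except in an alternative that left out the top 0.8% per 1000 barcodes. Counts of the chosen cells were summed per library and tested with edgeR 4.0.16 (R 4.3.3, quasi-likelihood test, TMM scaling, filterByExpr, Benjamini-Hochberg adjusted p under 0.05), with genes of the selection rule left out of all counts of tested genes. The interaction of strain with state used 8 sums with the library as a block. Shares were compared by exact permutation over libraries (scipy 1.17.1). Depth limits precision most in BALB/c 1, and intervals cover counting error only.

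The members and lists were chosen with earlier results of these data known. Named genes were the rule and marker genes, up to 4 tested members of lowest p per list, 20 genes of iNKT biology, the 10 genes of largest called strain difference in each direction at 20 CPM or more without overlap of libraries (receptor segments, H2, sex-linked and predicted genes skipped), the 5 interaction genes of lowest p in each direction and the 15 largest ratios between states in each direction. Alternatives were DESeq2 1.42.0 (size factors and Wald test), no low-count filter, thinning to 5000 UMIs, a threshold of 2 or 8 UMIs of Ccl5 and Gzma, doublet removal, each library left out and the replicate block. Leaving out cells with a Cd8a or Cd8b1 UMI was chosen after seeing the data. Values of 2 genes that this rule names are not reported here, though they stay in the counts.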

Additional observations from a re-analysis of the deposited data

Results flagged for a closer look

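The strain difference (BALB/c over B6, log2) differed between Ccl5-high and Ccl5-low cells, by edgeR's test of that difference itself, in the 10 interaction genes named. It was more positive in Ccl5-high cells for Lgals3 (1.25, adjusted p = 0.000146), Gzmc (1.96, 0.00985), Klra3 (0.43, 0.0189), Ifitm10 (0.51, 0.0237) and Hopx (0.45, 0.0305). It was more negative for Ifitm2 (-1.63, 1.63e-09), Ifitm3 (-1.25, 4.56e-06), Klra5 (-1.03, 1.84e-05), Id2 (-0.47, 0.000144) and Klra7 (-0.83, 0.000295). Lgals3, Ifitm2, Ifitm3, Klra5 and Id2 passed in all 11 alternatives. The others lost their call without at least 1 library. Gzmc, granzyme C, stood at 2.55 and 28.8 CPM in BALB/c and 13.1 and 15.7 CPM in B6 Ccl5-high cells, so the BALB/c libraries differed most from each other, and its adjusted p was 0.868 without BALB/c 2 and 0.495 without B6 2. Without BALB/c 2 the adjusted p was 0.738 for Klra3, 0.113 for Ifitm10 and 0.149 for Hopx, and without B6 2 it was 0.401 for Klra3, 0.488 for Hopx and 0.101 for Klra7. Without B6 1 it was 0.068 for Klra3 and 0.0757 for Ifitm10, and without BALB/c 1 it was 0.0565 for Hopx.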

How the results depend on the processing

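The count of genes differing between strains in Ccl5-high cells was 281. It was 278 with DESeq2's size factors, 201 with its Wald test, 773 without a low-count filter and between 21 and 1673 with 1 library left out. The interaction gave 39 genes, 15 with DESeq2's Wald test, 65 without a low-count filter, 76 with a threshold of 8 UMIs and between 31 and 84 with 1 library left out. The replicate numbers did not pair the libraries (r = 0.03 between the deviations of equally numbered libraries over 8848 genes), and with the replicate block 455 genes passed, all 281 among them. The difference in share of all quality-filtered cells was -1.45 points, 0.144 with a threshold of 8 UMIs, and between -4.04 and 1.14 with 1 library left out, including 0.0661 without B6 1. The difference in share of iNKT1 cells kept its sign in every alternative run. Of the 56 named strain calls and 10 interaction calls 0 changed direction in any alternative run. Of the 57 named genes without a strain call 9 changed sign, the widest being Gzmc, from -2.46 to 1.04. Of 56 named strain calls 13 held with any 1 library left out, and of 10 interaction calls 5 did. The cause of these shifts was not tested. BALB/c 1, the shallowest sum at 785285 UMIs, limits detection of low genes.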
